A study of Mus musculus with 6 samples.

Results

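The genes described here activate, desaturate, elongate and insert fatty acids into phospholipids, steps that set how easily a membrane lipid oxidises. They were chosen by name, with earlier results of these data known. They are the acyl-CoA synthetases Acsl1, Acsl3 and Acsl4, the lysophospholipid acyltransferase Lpcat3 and the desaturases Fads1, Fads2, Scd1 and Scd2. The others are the elongase Elovl5 and the cytochrome P450 reductase Por. All 10 were found, once each, among the 11609 genes of the mRNA tables, and all 10 passed the filter on low values, at least 1 FPKM (fragments per kilobase of transcript, scaled to the mapped fragments of the library) in at least 3 libraries, which 10590 genes passed.

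RNA was taken from cultures of N2a, a neuroblastoma line of the mouse, all of them differentiated with 10 µM retinoic acid over 96 h in medium with 2% serum, and the labels call the cells neurons. In 3 libraries the cells had also received 5 µM RSL3 over 24 h, which inhibits GPX4, the enzyme that reduces lipid peroxides, and thereby triggers ferroptosis, and in the other 3 libraries DMSO, the solvent, at the same concentration. The comparison asks how the transcripts of these genes stand in such cells under a ferroptosis trigger. The sources used here do not say if replicates were cultured separately, so the p-values measure only the spread between these libraries, which may be technical.

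Ferroptosis is a form of cell death driven by iron-dependent oxidation of phospholipids that carry polyunsaturated fatty acids. ACSL4 couples such acids to coenzyme A, LPCAT3 places them in phospholipids, and FADS2, FADS1 and ELOVL5 make the longer and more unsaturated ones from dietary precursors. ACSL3 and the SCD enzymes act on or produce monounsaturated fatty acids, which resist oxidation, and POR passes electrons from NADPH to microsomal enzymes and has been reported to feed lipid peroxidation.

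Summed mRNA values ran from 200135 to 213765 FPKM in the RSL3 libraries and from 220605 to 225295 FPKM in the DMSO libraries, and read depth is unknown. The lncRNA tables summed to 29914 to 36127 FPKM with RSL3 and 21975 to 26046 FPKM with DMSO. In them Gm26917 and Gm42418, known to overlap ribosomal RNA repeat sequence, summed to 26639 to 33129 FPKM with RSL3 and 18793 to 22979 FPKM with DMSO, with no overlap, and their part in the results was not tested. Of 16 neuron and neuroblast markers 13 were listed, with sums of 590.5 to 659.8 FPKM with RSL3 and 642.6 to 660.7 FPKM with DMSO. All 13 were tested, and 0 rose and 3 fell, beside 2.46% and 3.92% of all tested genes. Dcx, Nefl and Nefm were not in the tables. All 24 hepatocyte markers were listed, with sums of 29.7 to 48.1 FPKM with RSL3 and 100.4 to 142.6 FPKM with DMSO. Of the 19 tested, 18 fell. Where these transcripts came from in a neuroblastoma line was not tested. In bulk RNA fewer cells of a type and less RNA per cell cannot be told apart. Astrocyte, microglia and fibroblast markers summed to at most 5.02 FPKM in any library, 2 of 7 oligodendrocyte markers were listed, with sums of 6.29 to 6.62 FPKM with RSL3 and 5.24 to 5.57 FPKM with DMSO, and none of 7 adipocyte markers was listed. RSL3 replicate 1 stood apart. Over all genes with a known transcript, the difference of that library from the other RSL3 libraries correlated at 0.64 with the GC content of the transcript, against -0.60 and -0.23 for replicates 2 and 3.

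With RSL3, the mean FPKM of Por was 26.6% higher and that of Fads2 23.4% higher, both past the test, and no member fell. The other 8 did not pass. In limma, with 0.05 as the limit on the adjusted p, 6.38% of all tested genes passed, 261 (2.46%) higher and 415 (3.92%) lower (350 and 329 with quantile normalization), so 2 of 10 members rose beside a share of 2.46%. At an unadjusted p under 0.05 there were also 2 members, beside 24.1% of all genes. Over the members the median log2 fold change was 0.068, with 6 above 0 and 4 below, and over all tested genes it was -0.031. Without RSL3 replicate 2 the median over the members was -0.010, with 5 above 0 and 5 below, without RSL3 replicate 3 it was 0.020 and without DMSO replicate 2 it was 0.12. The median over all genes was 0.0087 without RSL3 replicate 1. The RSL3 libraries all lay above the DMSO libraries for Por, Fads2 and Fads1, and all below them for 0 members; among all tested genes the shares were 13.4% above and 19.6% below, 33.0% in all. Fold changes are RSL3 over DMSO on the log2(FPKM + 1) scale, which understates the change of low genes, with their standard error (SE).

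**Figure D1:**
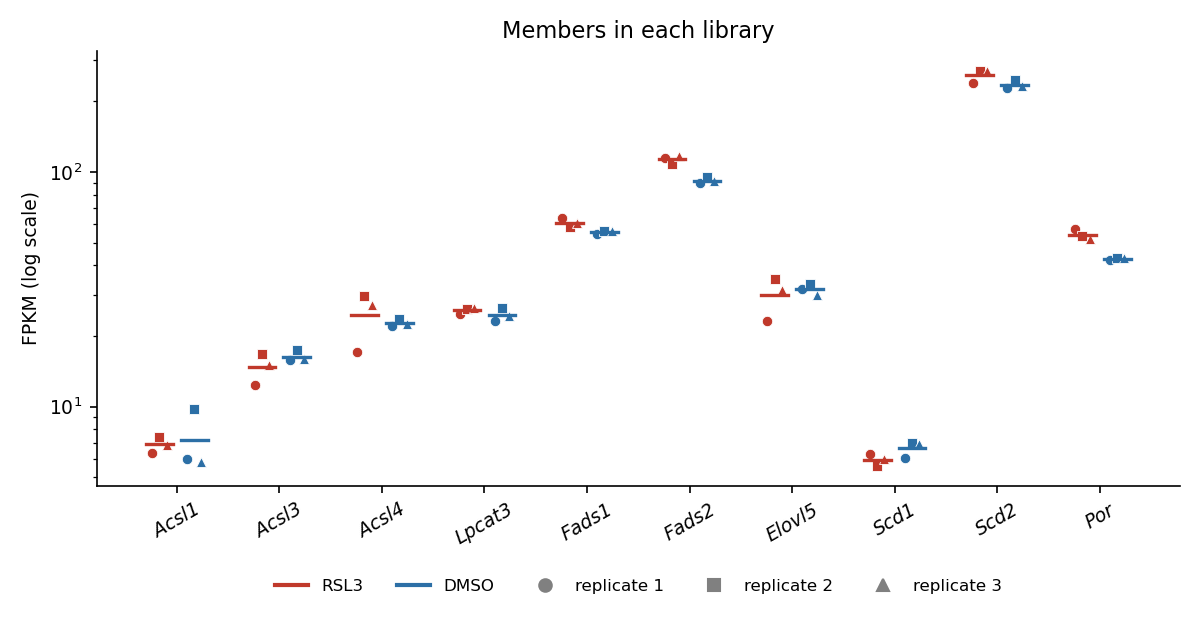
FPKM of each of the 10 genes (log axis) in the 3 RSL3 libraries (red, left) and the 3 DMSO libraries (blue, right), with marker shape for the replicate and a bar for the group mean. Levels span from 5.59 FPKM for Scd1 to 270.4 FPKM for Scd2, and the groups stand apart for Fads1, Fads2 and Por.

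By level, Scd2 stood first at 260.0 ± 17.1 FPKM with RSL3 and 235.7 ± 10.0 FPKM with DMSO (SD, n = 3 each), above 98.9% of tested genes in DMSO. Fads2, Fads1 and Por followed in that order in both groups, and none of these neighbours overlapped. Elovl5, Lpcat3, Acsl4, Acsl3, Acsl1 and Scd1 came next in both groups. In the RSL3 libraries Elovl5 overlapped with Lpcat3 and Lpcat3 with Acsl4, and in the DMSO libraries Lpcat3 overlapped with Acsl4 and Acsl1 with Scd1, so the order of these neighbours is not separated by the libraries. Scd1 was the lowest, at 5.95 ± 0.35 FPKM with RSL3 and 6.66 ± 0.54 FPKM with DMSO (SD, n = 3 each).

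Por encodes the NADPH-dependent reductase that serves cytochromes P450, haem oxygenase and squalene epoxidase in the endoplasmic reticulum. The gene (ENSMUSG00000005514.14) lies on chromosome 5, 135670033 to 135735326, plus strand, in build GRCm38. Por had 57.3, 53.3 and 51.6 FPKM in the RSL3 libraries, against 42.1, 43.0 and 43.0 FPKM in the DMSO libraries. Every RSL3 library was higher than every DMSO library, and the DMSO values lay close together. Por rose by 0.33 ± 0.06 (SE; adjusted p = 0.0237), a ratio of means of 1.27, with a 95% interval of 0.19 to 0.48.

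Fads2 encodes the desaturase that opens the conversion of linoleic and alpha-linolenic acid into long-chain polyunsaturated fatty acids. The gene (ENSMUSG00000024665.7) lies on chromosome 19, 10062765 to 10101746, minus strand. Fads2 had 115, 109 and 116 FPKM in the RSL3 libraries, against 89.4, 95 and 91.2 FPKM in the DMSO libraries. The groups did not overlap, and the highest DMSO library, replicate 2, stayed below the lowest RSL3 library, replicate 2. Fads2 rose by 0.30 ± 0.06 (SE; adjusted p = 0.0273), a ratio of means of 1.23, with a 95% interval of 0.16 to 0.44.

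Both calls held without RSL3 replicate 1 (Por 0.29, adjusted p = 0.0134, and Fads2 0.29, adjusted p = 0.0219), where 3 of 10 members rose beside 4.94% of all genes. They held without RSL3 replicate 2 and, in a fit chosen after seeing the data, with the length and GC trends of each library removed (Por 0.27, adjusted p = 0.0164, and Fads2 0.29, adjusted p = 0.00709). Of all tested genes 2.76% were called higher without RSL3 replicate 2 and 7.23% with the trends removed. Both were lost without RSL3 replicate 3 (adjusted p = 0.0650 for Por and 0.106 for Fads2) and without DMSO replicate 1 (0.133 and 0.154), 2 (0.116 and 0.104) or 3 (0.111 and 0.135). The fold changes in these 4 fits stayed between 0.28 and 0.36. In the same 4 fits 0.447% to 0.571% of all tested genes were called higher, against 2.46% with all libraries. Holding or losing a call thus went with the share called over all genes. Por and Fads2 have the most GC-rich longest transcripts of the 10 members, at 58.3% and 54.4%. In the same RSL3 libraries the hepatocyte markers stood lower (39.7 ± 9.33 FPKM summed with RSL3 and 123 ± 21.3 FPKM with DMSO, SD, n = 3 each), and their part in the result was not tested.

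**Figure D2:**
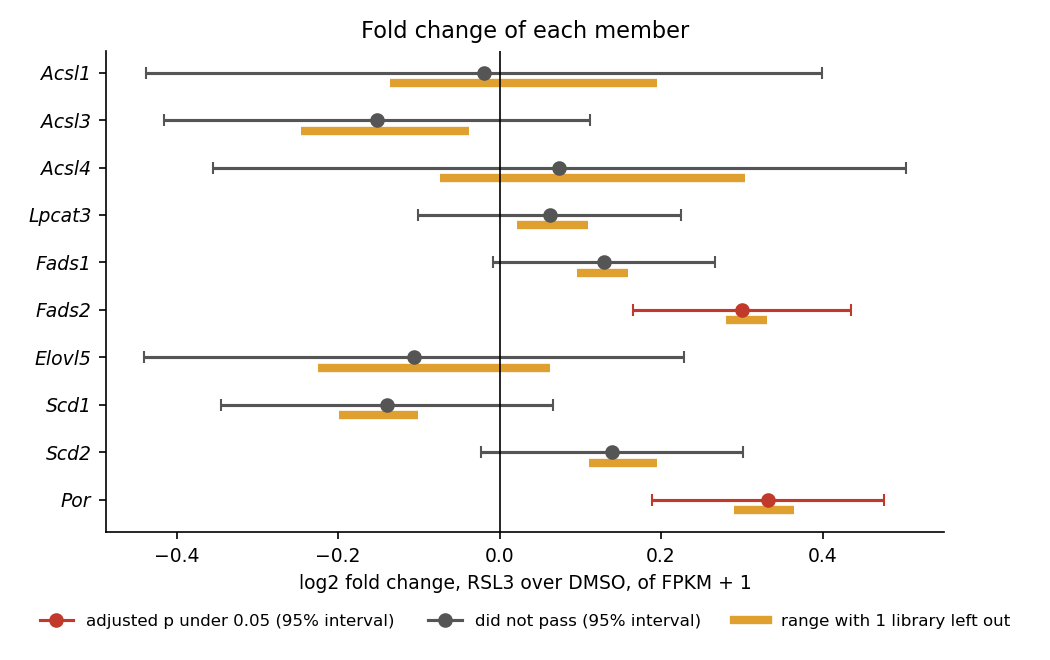
Log2 fold change of each gene, RSL3 over DMSO, with its 95% interval (points and whiskers, red where the adjusted p is under 0.05) and the range of the estimate when 1 library is left out (orange bar). The intervals of Por (0.19 to 0.48) and Fads2 (0.16 to 0.44) lie above 0, and those of Acsl1, Acsl4 and Elovl5 are the widest.

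The sequences before the matched RefSeq start sites of Fads2 and Por are shown because these members passed. The Por stretch ends at base 135689144, inside the gene, whose annotated span begins at 135670033. The sequence before that first base was not searched. Beside them is the 1 searched stretch in which a sterol regulatory element was found. No RefSeq promoter was matched for Fads1, Scd1 or Scd2, so theirs were not searched for motifs. For the other 7 members RefSeq promoters (build GRCm38.p6, 250 bases before to 50 after the start) were matched, with 8 start sites. Each was searched on both strands for the antioxidant response element core TGACNNNGC, the sterol regulatory element TCACNCCAC, the NF-Y box CCAAT, and the direct repeats bound by liver X receptors and by PPARs. The 250 bases before each start are written 5′ to 3′ on the strand of the gene, with capitals for motif matches.
Fads2, chr19:10101504-10101753, minus strand: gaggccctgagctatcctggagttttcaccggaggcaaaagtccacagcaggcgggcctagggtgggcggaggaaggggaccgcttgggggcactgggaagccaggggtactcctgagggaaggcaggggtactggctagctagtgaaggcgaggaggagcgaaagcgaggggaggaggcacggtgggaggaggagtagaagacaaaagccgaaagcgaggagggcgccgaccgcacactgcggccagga
Por, chr5:135688895-135689144, plus strand: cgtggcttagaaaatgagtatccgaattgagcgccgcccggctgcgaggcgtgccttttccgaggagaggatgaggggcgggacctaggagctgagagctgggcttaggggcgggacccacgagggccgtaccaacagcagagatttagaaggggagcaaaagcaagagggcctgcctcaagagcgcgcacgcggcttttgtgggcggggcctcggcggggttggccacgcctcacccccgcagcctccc
Acsl1, the downstream start, chr8:46490716-46490965, plus strand: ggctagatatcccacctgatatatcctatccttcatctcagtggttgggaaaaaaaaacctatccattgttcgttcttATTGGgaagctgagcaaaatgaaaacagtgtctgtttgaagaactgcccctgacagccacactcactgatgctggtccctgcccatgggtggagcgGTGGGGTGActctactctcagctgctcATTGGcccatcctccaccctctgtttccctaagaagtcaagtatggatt

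Neither the Fads2 nor the Por stretch held any of the 5 motifs, so it has no capitals. These stretches were GC-rich, at 64.8% and 65.6%, with 14 and 21 CG pairs. Those of Acsl3 (75.6%), Acsl4 (70.8%), Lpcat3 (70.0%) and the upstream Acsl1 start (72.0%) were higher in GC. Those of Elovl5 (55.6%) and the downstream Acsl1 start (48.4%) were lower. The downstream Acsl1 start held 1 match to the sterol regulatory element on the minus strand, GTGGGGTGA, which 1.24% of 32851 promoters hold, and NF-Y boxes on either side of it. An NF-Y box was present in 4 of the 8 member promoters, those of Acsl3, Lpcat3 and Elovl5 and the downstream one of Acsl1, beside 37.4% of all promoters. The other 3 motifs were found in 0 of the 8, beside 12.4% of all promoters for the antioxidant element core and 0.0152% and 0.0396% for the liver X receptor and PPAR repeats. No match overlapped another in the members.

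Fads1 encodes the desaturase that follows FADS2 in the same pathway, and lies 81142 bases from it between start sites (ENSMUSG00000010663.4, chromosome 19, 10182888 to 10196877, plus strand). Fads1 had 63.6, 58.2 and 60.5 FPKM in the RSL3 libraries, against 54.3, 56.2 and 55.8 FPKM in the DMSO libraries. The groups did not overlap, but Fads1 did not pass (0.13 ± 0.06 SE, adjusted p = 0.229), with a 95% interval of -0.0086 to 0.27. Fads2 stood at 1.81, 1.87 and 1.93 times the FPKM of Fads1 in the RSL3 libraries, against 1.65, 1.69 and 1.63 times in the DMSO libraries. This ratio differed by 0.17 on the log2 scale (two-sided exact permutation p = 0.1, the smallest that 3 against 3 allows; 0.15 adjusted over the 3 ratios tested), and the groups did not overlap. A ratio within a library does not depend on how libraries are scaled.

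Elovl5, which elongates polyunsaturated fatty acids between the desaturation steps, lies on chromosome 9, 77917364 to 77984519, plus strand (ENSMUSG00000032349.13). It had 23.1, 34.9 and 31.5 FPKM in the RSL3 libraries, against 31.8, 33.4 and 30.03 FPKM in the DMSO libraries. RSL3 replicate 1 was the lowest of all 6 libraries and RSL3 replicate 2 the highest, so the groups overlapped fully. Elovl5 did not pass (-0.11 ± 0.14 SE, adjusted p = 0.701), with a 95% interval of -0.44 to 0.23, and without RSL3 replicate 1 it stood at 0.062.

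Acsl4, the synthetase that prefers arachidonic acid and is required for ferroptosis in many cell types, lies on chromosome X, 142317993 to 142390535, minus strand (ENSMUSG00000031278.12). It had 17.1, 29.7 and 27.0 FPKM in the RSL3 libraries, against 22.2, 23.6 and 22.4 FPKM in the DMSO libraries. RSL3 replicates 2 and 3 were above every DMSO library and RSL3 replicate 1 below every one. Acsl4 did not pass (0.074 ± 0.18 SE, adjusted p = 0.847), with a 95% interval of -0.36 to 0.50. Without RSL3 replicate 1 it stood at 0.30 and passed (adjusted p = 0.0289), without RSL3 replicate 2 at -0.074 and without RSL3 replicate 3 at -0.0085, and with length and GC trends removed at 0.17 (adjusted p = 0.151). Its longest transcript has the lowest GC content of the members, 39.0%.

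Acsl3, a synthetase of the endoplasmic reticulum and lipid droplets that activates monounsaturated fatty acids, lies on chromosome 1, 78657825 to 78707743, plus strand (ENSMUSG00000032883.15). It had 12.3, 16.8 and 15.1 FPKM in the RSL3 libraries, against 15.8, 17.4 and 15.9 FPKM in the DMSO libraries. RSL3 replicates 1 and 3 lay below every DMSO library and RSL3 replicate 2 among them, and Acsl3 did not pass (-0.15 ± 0.11 SE, adjusted p = 0.460), with a 95% interval of -0.42 to 0.11. Utp14b, an overlapping gene on the same strand, shares 244 exonic bases with Acsl3. Of the 50-base stretches of the longest Acsl3 transcript 4.05% also occur in other genes, all of these stretches in Utp14b. The Acsl3 values are uncertain to that extent.

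Acsl1, the main synthetase of liver, fat and heart, lies on chromosome 8, 46471037 to 46536051, plus strand (ENSMUSG00000018796.13). It had 6.35, 7.47 and 6.90 FPKM in the RSL3 libraries, against 5.98, 9.77 and 5.81 FPKM in the DMSO libraries. DMSO replicate 2 was the highest of the 6 and gave Acsl1 the largest spread of any member within DMSO, a coefficient of variation of 31.1%, while the others ran from 1.18% to 8.07%. Acsl1 did not pass (-0.019 ± 0.18 SE, adjusted p = 0.964), with a 95% interval of -0.44 to 0.40; it stood at 0.19 without DMSO replicate 2 (adjusted p = 0.402), and at 0.013 and 0.0028 with median-ratio and quantile scaling. DMSO replicate 2 also had the highest sum of hepatocyte markers, 142.6 FPKM, against 100.4 and 126.0 FPKM in DMSO replicates 1 and 3, and the part of these markers in the value was not tested.

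Among the long-chain acyl-CoA synthetases, Acsl4 held 34.3%, 42.0% and 41.9% of the summed FPKM of Acsl1, Acsl3, Acsl4, Acsl5 and Acsl6 in the RSL3 libraries, against 36.3%, 34.1% and 36.1% in the DMSO libraries. It was the largest share in every library, and the groups overlapped through RSL3 replicate 1. Acsl3 held 23.9% ± 0.68 with RSL3 and 25.5% ± 0.41 with DMSO (SD, n = 3 each). Acsl5 held 19.8% ± 1.15 with RSL3 and 23.0% ± 0.81 with DMSO (SD, n = 3 each). The ratio of Acsl4 to Acsl3 was 1.39, 1.77 and 1.79 in the RSL3 libraries, against 1.41, 1.36 and 1.41 in the DMSO libraries. The ratio differed by 0.24 on the log2 scale (two-sided exact permutation p = 0.3 over all 6 libraries, and 0.3 adjusted over the 3 ratios). In this test 3 against 3 cannot go below 0.1. RSL3 replicate 1 was the 1 RSL3 library that lay among the DMSO libraries. Without it the difference was 0.36, the largest with any 1 library left out. Transcript GC content is 39.0% for Acsl4 and 43.2% for Acsl3, and its part in the ratio in that library was not tested.

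Lpcat3, which inserts polyunsaturated acyl chains into lysophospholipids, lies on chromosome 6, 124663027 to 124704418, plus strand (ENSMUSG00000004270.13). It had 24.8, 26.2 and 26.3 FPKM in the RSL3 libraries, against 23.2, 26.3 and 24.4 FPKM in the DMSO libraries. The groups overlapped, and Lpcat3 had the smallest spread of the members within RSL3, with a coefficient of variation of 3.31%. It did not pass (0.062 ± 0.07 SE, adjusted p = 0.639), with a 95% interval of -0.10 to 0.23. Emg1, on the opposite strand, shares 334 exonic bases with it.

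Scd1 and Scd2 encode stearoyl-CoA desaturases, which make monounsaturated oleic and palmitoleic acid. In mice Scd2 is the form of brain and Scd1 that of liver and fat. Scd2 (ENSMUSG00000025203.5, chromosome 19, 44293674 to 44306864, plus strand) had 240.3, 269 and 270.4 FPKM in the RSL3 libraries, against 228, 247 and 233 FPKM in the DMSO libraries. RSL3 replicates 2 and 3 lay above every DMSO library and RSL3 replicate 1 among them, and Scd2 did not pass (0.14 ± 0.07 SE, adjusted p = 0.265), with a 95% interval of -0.023 to 0.30.

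Scd1 (ENSMUSG00000037071.2, chromosome 19, 44394455 to 44407879, minus strand) had 6.28, 5.59 and 5.98 FPKM in the RSL3 libraries, against 6.04, 6.98 and 6.97 FPKM in the DMSO libraries. RSL3 replicates 2 and 3 lay below every DMSO library, and RSL3 replicate 1 lay among them. Scd1 did not pass (-0.14 ± 0.09 SE, adjusted p = 0.382), with a 95% interval of -0.34 to 0.067. Scd2 made up 96.6% ± 0.47 of the summed FPKM of Scd1, Scd2, Scd3 and Scd4 with RSL3 and 96.1% ± 0.23 with DMSO (SD, n = 3 each). Scd1 made up 2.22% ± 0.26 with RSL3 and 2.72% ± 0.16 with DMSO (SD, n = 3 each).

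The ratio of Scd1 to Scd2 was 0.0261, 0.0208 and 0.0221 in the RSL3 libraries, against 0.0265, 0.0283 and 0.0300 in the DMSO libraries. Every RSL3 library stood below every DMSO library, a difference of -0.30 on the log2 scale (two-sided exact permutation p = 0.1, the smallest possible; 0.15 adjusted over the 3 ratios). Of the 50-base stretches of the longest Scd1 transcript 4.66% also occur in transcripts of other genes, most of them of Scd3, and for Scd2 the share is 4.01%, most of it in Scd1. The sources used here do not say how reads from such stretches were assigned, so the low Scd1 values are uncertain beside Scd2. The hepatocyte markers were lower in the same RSL3 libraries, and Scd1 is a liver gene; their part in its value was not tested.

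**Figure D3:**
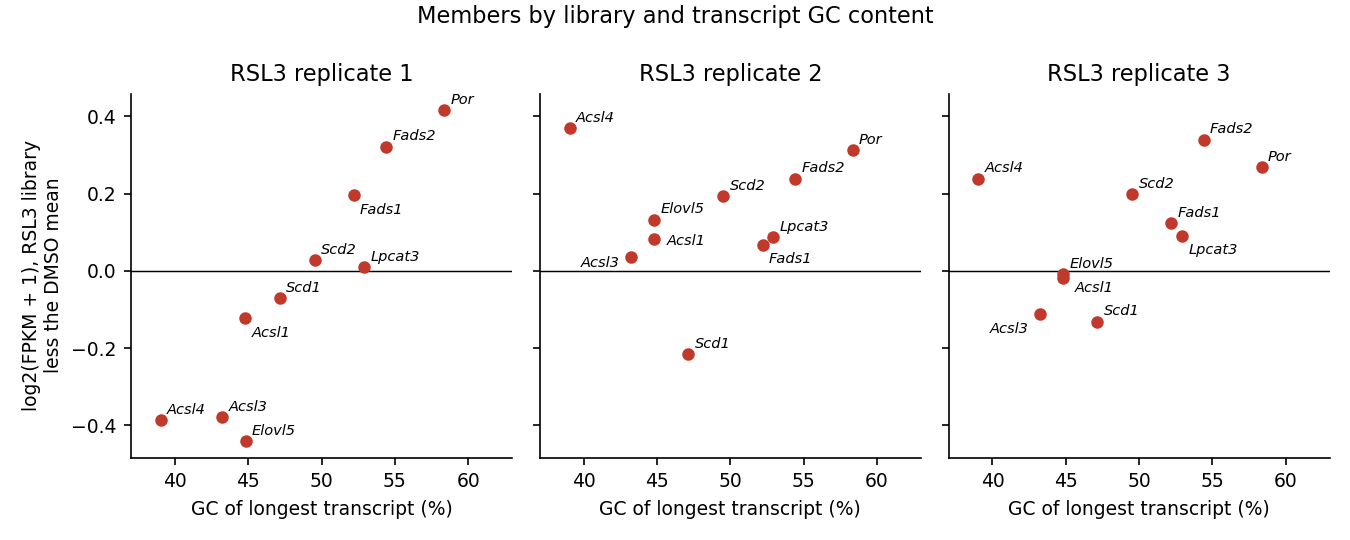
Difference of each gene's log2(FPKM + 1) in an RSL3 library from its mean over the 3 DMSO libraries, against the GC content of its longest transcript in percent, 1 panel per RSL3 library. In replicate 1 the values run from -0.44 for Elovl5 to 0.42 for Por and follow GC content, while Acsl4 stands at 0.37 and 0.24 in replicates 2 and 3.

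The members split by library along their base composition. In RSL3 replicate 1, Acsl4, Acsl3 and Elovl5, with transcripts of 39.0%, 43.2% and 44.8% GC, stood 0.39, 0.38 and 0.44 below their DMSO means on the log2 scale. Fads1, Fads2 and Por, at 52.2%, 54.4% and 58.3% GC, stood 0.20, 0.32 and 0.42 above them in the same library. Across the 10 members the difference from the DMSO mean correlated with GC content at 0.93 in RSL3 replicate 1, 0.11 in replicate 2 and 0.48 in replicate 3. These 10 points share their library and the DMSO mean, so the values only describe them. For Por and Fads2 the differences were 0.42 and 0.32 in replicate 1, 0.31 and 0.24 in replicate 2, and 0.27 and 0.34 in replicate 3, so that both stood higher in every RSL3 library.

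Taken by their 6 values less the DMSO mean, the members that lay closest to each other were Fads2 and Por, with a root mean square difference of 0.060 on the log2 scale. Lpcat3 and Scd2 followed at 0.064 and Acsl3 and Elovl5 at 0.069, and Acsl3 and Por lay farthest apart at 0.38. Among 6687 genes with a mean of at least 5 FPKM, the nearest to Fads2 over the 6 libraries were Sec24d, a subunit of the COPII vesicle coat, at 0.022 and Clcn7, a lysosomal chloride transporter, at 0.030. Those nearest to Por were Fbln2, an extracellular matrix protein, at 0.028 and the transcription factor gene Sox9 at 0.030. Of these 4 genes Fbln2 rose (0.32, adjusted p = 0.0326), and Sec24d (0.30, adjusted p = 0.0577), Clcn7 (0.26, adjusted p = 0.0754) and Sox9 (0.33, adjusted p = 0.0701) did not pass. The 4 genes were picked because their values lay close to those of members that had passed. Fold changes near those of Fads2 and Por follow from that choice, so these values are no separate test.

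Related genes came from 9 lists of 149 entries, of which 108 were listed in the tables and 100 were tested. Of these 12 rose and 1 fell, beside 2.46% and 3.92% of all tested genes. The lists were chosen with earlier results of these data known, so these counts are no test of the lists. Of the 13 that passed, Hmox1 and Cyp26b1 also passed each time 1 of the 6 libraries was left out. The hepatocyte markers were lower in the same RSL3 libraries; their part was not tested.

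**Figure D4:**
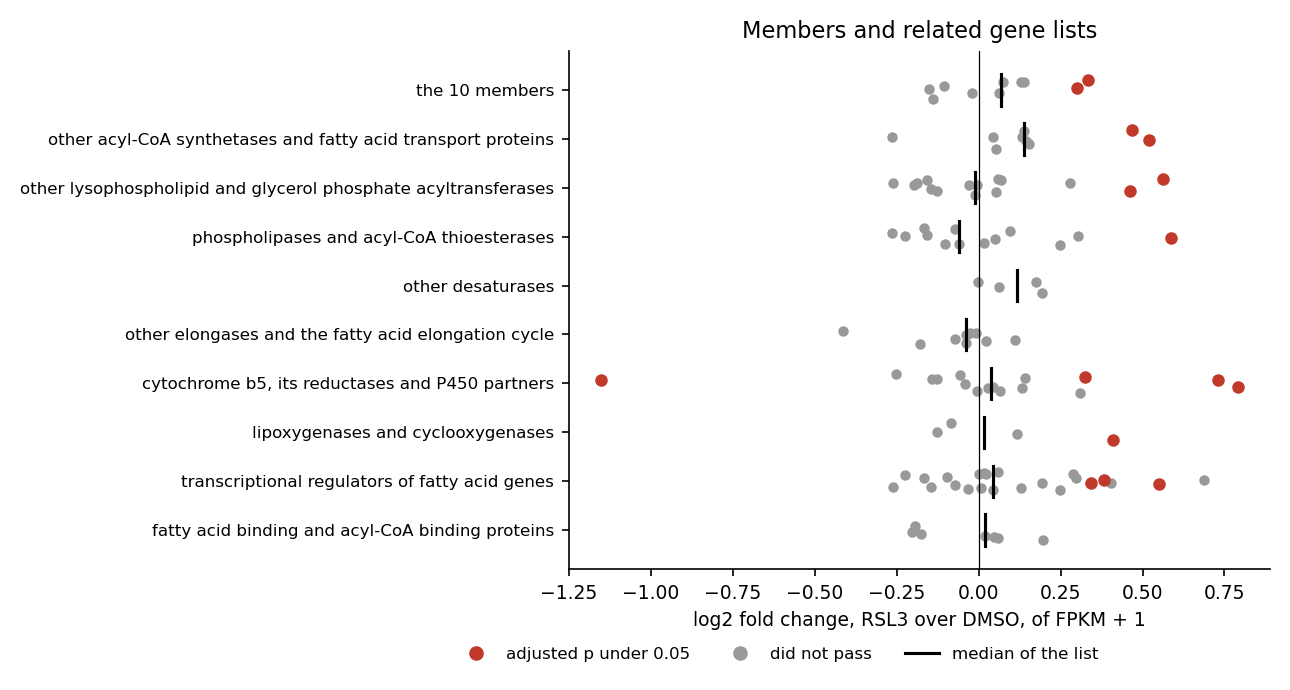
Log2 fold change, RSL3 over DMSO, of the 10 genes and of the tested genes of 9 related lists (red points pass at an adjusted p under 0.05, black bars are list medians). List medians run from -0.060 to 0.14, and every gene that passed lies above 0 except Cyp2e1, at -1.15.

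Of 9 tested other acyl-CoA synthetases and fatty acid transport proteins, 2 rose and 0 fell, with a median log2 fold change of 0.14. Slc27a1, a fatty acid transport protein with synthetase activity, averaged 3.04 ± 0.24 FPKM with RSL3 and 1.92 ± 0.08 FPKM with DMSO (0.47 ± 0.08 SE, adjusted p = 0.0209). Acsbg1, a synthetase of the bubblegum family found in brain and steroid-producing tissue, averaged 2.38 ± 0.29 FPKM with RSL3 and 1.36 ± 0.24 FPKM with DMSO (0.52 ± 0.11 SE, adjusted p = 0.0374). Both stood at low levels, and both calls were lost without RSL3 replicate 3 and without any 1 of the DMSO libraries.

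Of 15 tested genes on a list of lysophospholipid and glycerol phosphate acyltransferases, which also holds the lysoplasmalogenase gene Tmem86a and the scramblase gene Plscr1, 2 rose and 0 fell, with a median of -0.012. Lpcat1, which acylates lysophosphatidylcholine mainly with saturated chains, averaged 5.65 ± 0.49 FPKM with RSL3 and 3.83 ± 0.34 FPKM with DMSO (0.46 ± 0.10 SE, adjusted p = 0.0372). The other was Tmem86a, at 5.63 ± 0.28 FPKM with RSL3 and 3.52 ± 0.57 FPKM with DMSO (0.56 ± 0.11 SE, adjusted p = 0.0291). Both calls held without RSL3 replicate 1 and were lost without any 1 of the other 5 libraries. Of 13 phospholipases and thioesterases, 1 rose and 0 fell, with a median of -0.060: Abhd4, a lysophospholipase of N-acylethanolamine synthesis, at 12.04 ± 1.56 FPKM with RSL3 and 7.66 ± 0.66 FPKM with DMSO (0.59 ± 0.11 SE, adjusted p = 0.0257). This call was lost without RSL3 replicate 3 and without any 1 of the DMSO libraries.

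None of 4 other desaturases and none of 9 other elongation genes passed in limma, with 1 and 0 at an unadjusted p under 0.05 and medians of 0.12 and -0.037. Fads3, the third gene of the Fads cluster, averaged 14.7 ± 0.92 FPKM with RSL3 and 12.9 ± 0.10 FPKM with DMSO (0.17 ± 0.07 SE, adjusted p = 0.183). Elovl4, which makes very long chains, averaged 13.9 ± 2.09 FPKM with RSL3 and 15.8 ± 0.32 FPKM with DMSO (-0.18 ± 0.11 SE, adjusted p = 0.357). None of 7 fatty acid and acyl-CoA binding proteins passed in limma either, with 2 at an unadjusted p under 0.05 and a median of 0.020. Of these Fabp5 averaged 21.3 ± 1.24 FPKM with RSL3 and 24.6 ± 0.44 FPKM with DMSO (-0.20 ± 0.07 SE, adjusted p = 0.117).

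Among 16 genes of cytochrome b5, its reductases and enzymes that draw on POR or related electron transfer, 3 rose and 1 fell, with a median of 0.036. Cyp26b1, a P450 that degrades retinoic acid, averaged 130.6 ± 11.97 FPKM with RSL3 and 74.9 ± 3.48 FPKM with DMSO (0.79 ± 0.08 SE, adjusted p = 0.00401). Hmox1, the haem oxygenase that takes its electrons from POR, averaged 81.1 ± 6.21 FPKM with RSL3 and 48.4 ± 2.05 FPKM with DMSO (0.73 ± 0.07 SE, adjusted p = 0.00401). Txnrd1, a thioredoxin reductase, rose by 0.32 ± 0.07 SE (adjusted p = 0.0452), a call that was lost without any 1 library other than RSL3 replicate 1 and without the variance trend (adjusted p = 0.0683). The P450 gene that fell was Cyp2e1 (-1.15 ± 0.13 SE, adjusted p = 0.00497), which is also one of the hepatocyte markers. It had 0.36 ± 0.13 FPKM with RSL3 and 2.03 ± 0.42 FPKM with DMSO, and without a DMSO library it did not reach the filter and was not tested. The cytochrome b5 reductase genes did not pass: Cyb5r3 averaged 100.6 ± 8.93 FPKM with RSL3 and 95.8 ± 2.70 FPKM with DMSO (0.066 ± 0.07 SE, adjusted p = 0.642), and Cyb5r1 averaged 24.4 ± 6.16 FPKM with RSL3 and 24.9 ± 0.78 FPKM with DMSO (-0.056 ± 0.16 SE, adjusted p = 0.867). Both were chosen after their values were seen.

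Of 13 entries for lipoxygenases, cyclooxygenases and their partners 4 were listed: the cyclooxygenase gene Ptgs1, the prostaglandin E synthase genes Ptges2 and Ptges3, and Pebp1, a phosphatidylethanolamine-binding protein. Of these 1 rose and 0 fell, with a median of 0.015. Ptgs1, a cyclooxygenase that oxidises free arachidonic acid, averaged 16.8 ± 0.76 FPKM with RSL3 and 12.4 ± 0.46 FPKM with DMSO (0.41 ± 0.07 SE, adjusted p = 0.0176). Of 23 transcriptional regulators 3 rose and 0 fell, with a median of 0.043. Insig1, which retains the SREBP complex in the endoplasmic reticulum and is itself induced by SREBP, averaged 41.8 ± 2.99 FPKM with RSL3 and 32.7 ± 0.79 FPKM with DMSO (0.34 ± 0.07 SE, adjusted p = 0.0347). Pparg, a nuclear receptor for fatty acids, averaged 8.81 ± 0.28 FPKM with RSL3 and 5.72 ± 0.68 FPKM with DMSO (0.55 ± 0.10 SE, adjusted p = 0.0197). Its partner Rxra averaged 2.10 ± 0.10 FPKM with RSL3 and 1.39 ± 0.15 FPKM with DMSO (0.38 ± 0.08 SE, adjusted p = 0.0429). The calls of Ptgs1, Insig1, Pparg and Rxra were each lost without RSL3 replicate 3 and without any 1 of the DMSO libraries, and all 4 held without RSL3 replicate 1. Those of Insig1 and Rxra were also lost without RSL3 replicate 2, that of Rxra with quantile normalization (adjusted p = 0.0574), and that of Insig1 without the variance trend (adjusted p = 0.0534).

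Srebf1, the regulator of fatty acid synthesis and desaturase genes, and Srebf2, that of sterol genes, did not pass and were chosen after their values were seen. Srebf1 averaged 62.3 ± 6.27 FPKM with RSL3 and 50.3 ± 1.72 FPKM with DMSO (0.30 ± 0.08 SE, adjusted p = 0.0783). Srebf2 averaged 75.1 ± 5.17 FPKM with RSL3 and 74.1 ± 2.33 FPKM with DMSO (0.017 ± 0.07 SE, adjusted p = 0.909).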

How the data were processed

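The mRNA and lncRNA values were deposited in FPKM. Per the submitters' processing notes, cutadapt, HISAT2, StringTie 1.3.3 and the build GRCm38 were used, and per the labels' protocols libraries followed poly(A) selection with a stranded kit. No source used here gives the authors' annotation release or filters. The circRNA signal was deposited under a CPM heading; 100% of its values lay within 0.01 of a whole multiple of the smallest value of their library and were taken as reads. FPKM holds no read depth, so no counting interval is given.

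Each gene was tested on log2(FPKM + 1), RSL3 minus DMSO, by limma 3.58.1 under R 4.3.3 with the prior variance following mean level; p-values are two-sided, with Benjamini-Hochberg adjustment over 10590 genes and a threshold of 0.05. Within-library ratios were compared by two-sided exact permutation tests. Of the mRNA identifiers 11595 matched GENCODE M21, which gave positions, GC content and shared stretches. All members are named, with up to 4 genes with the smallest p of each list; a list with no call gives 1, and for each member called the 2 genes most like it. The members and lists were chosen with earlier results of these data known. Alternatives covered pseudocount, filter, scaling, variance model, replicate block and each library left out. Deviations of same-numbered libraries correlated at -0.15, 0.049 and -0.062 across genes. These values cannot settle whether replicate numbers pair libraries, since a trend within single libraries could hide a shared part. The sources used here do not say.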

Additional observations from a re-analysis of the deposited data

How the results depend on the processing

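The number of members past the threshold was 2, with 1 under limma without the variance trend, where Fads2 did not pass (adjusted p = 0.0545), and 0 with the replicate block (Por adjusted p = 0.0886, Fads2 0.102). It ranged from 0 to 3 with 1 library left out. Of all genes 676 passed, against 253 with the replicate block, 1693 with length and GC trends removed (an alternative chosen after seeing the data), and 137 to 1276 with 1 library left out; quantile normalization gave 350 higher and 329 lower, against 261 and 415. Of the tested genes of the 9 related lists 13 passed, against 4 with the replicate block, 20 with the trends removed, and 2 to 16 with 1 library left out. It is not known whether same-numbered libraries belong together, so it is not settled whether the block applies. The calls lost under the block remain a limit. Over the 15 alternatives Por stayed between 0.27 and 0.42 and Fads2 between 0.28 and 0.41. Acsl1 (-0.019; -0.14 to 0.19 with 1 library left out) stood at 0.013 with median-ratio scaling, 0.0028 with quantile normalization, 0.046 with trends removed, 0.032 without RSL3 replicate 1 and 0.19 without DMSO replicate 2. Acsl4 (0.074; -0.074 to 0.30) stood at -0.074 without RSL3 replicate 2 and -0.0085 without RSL3 replicate 3, and Elovl5 (-0.11; -0.22 to 0.062) at 0.062 without RSL3 replicate 1. The other 5 members kept their direction in all 15 alternatives and did not pass in any. With 1 library left out the log2 differences ran from 0.17 to 0.36 for Acsl4 over Acsl3, 0.15 to 0.19 for Fads2 over Fads1 and -0.40 to -0.23 for Scd1 over Scd2. The cause of these shifts was not tested.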

Other observations

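Circular RNAs gave little further readout of these loci, in libraries that followed poly(A) selection per the labels' protocols. Of 3168 circRNAs, 1414 were named by coordinates, and 1 of these lay within a member gene, an Acsl3 circle on chromosome 1 from 78681593 to 78705391 whose ends both fall on exon ends. It had 2, 3 and 4 back-splice reads in the RSL3 libraries, against 3, 0 and 2 reads in the DMSO libraries, out of 5226, 7364 and 6782 reads with RSL3 and 9409, 7194 and 7179 reads with DMSO. At these counts no difference was detectable. The 1754 circRNAs named by an identifier alone were not placed here. In a count test of the recovered reads with edgeR 4.0.16, added after seeing the data, 1 of 485 circRNAs passed at an adjusted p under 0.05 and 25 at an unadjusted p under 0.05.

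Genes that overlap or adjoin the members gave values of their own. Utp14b, which shares exonic sequence with Acsl3, had 5.40, 6.33 and 6.36 FPKM in the RSL3 libraries, against 5.37, 5.18 and 4.72 FPKM in the DMSO libraries. Emg1, which overlaps Lpcat3 on the opposite strand, had 11.5, 11.8 and 12.4 FPKM with RSL3, against 12.7, 13.4 and 12.3 FPKM with DMSO. Tmem120a, next to Por, had 26.5, 22.9 and 30.2 FPKM with RSL3, against 25.3, 23.6 and 26.5 FPKM with DMSO, and its groups overlapped where those of Por did not.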
